A study of Mus musculus with 8 samples.

Results

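Replication timing was examined in mouse embryonic stem cells at the genes that encode the Polycomb repressive complexes, in control cells and in cells depleted of the transcription factor YY1. The 10 genes were taken as a named set: Ring1, Rnf2, Bmi1, Pcgf6 and Kdm2b of Polycomb repressive complex 1 (PRC1), and Ezh2, Ezh1, Eed, Suz12 and Jarid2 of Polycomb repressive complex 2 (PRC2). All 10 had a timing score at the midpoint of the gene in every profile, among 21519 protein-coding genes on the autosomes and chromosome X that did. The measurement was Repli-seq, in which cells are pulse-labelled with the nucleotide analogue BrdU (2 h here), sorted into early and late S phase by DNA content, and the labelled DNA of each fraction is recovered with an antibody and sequenced.

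The control group and the dTAG group each had 2 replicates, and each replicate had an early and a late S phase sample, so that 8 samples stand behind 4 timing profiles. The dTAG samples were collected 2 days after treatment with dTAG, a small molecule that directs a protein carrying a matching tag to degradation, and the series names YY1 as the depleted protein. The labels give the cells as mESC and refer to an earlier publication for culture and treatment; the sources used here do not name the clone, the tag on YY1 or what the control cells received, and do not say whether replicates were separate cultures. Spread between replicates may therefore be technical, and p-values measure that spread alone, in part as limma shares it across genes. The assay reads DNA and not RNA, so neither the loss of YY1 nor markers of the cell type could be checked.

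Polycomb proteins keep developmental genes repressed in embryonic stem cells and in other tissues. PRC2 methylates histone H3 at lysine 27 through its catalytic subunit Ezh2 or Ezh1, and PRC1 ubiquitinates histone H2A through Ring1 or Rnf2. Replication timing is the order in which stretches of a chromosome are copied during S phase. Gene-rich and active chromatin is generally copied early, and gene-poor, repressed chromatin late. What follows concerns when the genes that encode Polycomb proteins were copied, not the sites that the proteins bind.

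The deposited values are a signed score every 5 kb of the mm10 genome, smoothed and quantile normalized by the authors. A high score was read as early replication. The table does not state the formula, the log base or the direction, so levels and differences are in score units, and the read depth behind them is unknown. Above 0 in all 4 profiles were 77.5% of protein-coding genes and 46.3% of all positions with a score. The scores of replicate 1 averaged 0.20 and those of replicate 2 averaged -0.20 in both groups, so a control and a dTAG score are best compared within a replicate number. Titles and S phase labels conflict for dTAG replicate 1: the sample with L in its title is labelled early, and the sample with E is labelled late. The dTAG 1 profile correlated with control 1 at r = 0.990 over the 21519 genes, which are not independent replicates, so its sign was kept.

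Since YY1 was the depleted protein, the promoters of the 10 genes were searched for the core of its binding motif, AANATGGC, which reads GCCATNTT on the opposite strand. RefSeq promoter windows (GRCm38.p6, the assembly behind mm10) reach from 250 bases before to 50 bases after an annotated start, and 14 windows matched the 10 genes. Both strands were searched. The motif was found in 2 of the 10 genes, Bmi1 and Jarid2, against 6.96% of all 27025 genes with a window and 6.05% of all 32851 windows. Of the protein-coding genes used elsewhere here, 17273 had a start among these windows, so this background also holds genes outside that set. The stretches below show both matches from 40 bases before the motif, with the match in capitals, 5′ to 3′ on the plus strand, which is the strand of both genes.

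Bmi1, chr2:18676808-18676895: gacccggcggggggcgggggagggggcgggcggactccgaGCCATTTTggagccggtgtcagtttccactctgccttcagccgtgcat

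Jarid2, chr13:44730720-44730773: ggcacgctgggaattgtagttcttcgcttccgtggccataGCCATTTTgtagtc

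The Bmi1 match began 170 bases before the annotated start and the Jarid2 match 14 bases before it. Both had the same 8 letters, in the orientation opposite to the gene. A match is a description of the letters only, since binding of YY1 was not measured here.

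The promoters of the 10 genes were rich in CpG dinucleotides, the letters that mark the CpG islands to which Kdm2b, through its zinc finger, brings a form of PRC1. Their median G and C content was 65.3%, against 52.7% over all genes with a window, and their median count of CpG was 26.8 per window, against 7. This background is the same wider set, and a comparison with protein-coding genes alone was not made. Kdm2b itself held the window with the most CpG, 49, and Eed the window with the fewest, 17; the Kdm2b window belongs to an annotated start inside the gene. The 100 bases just before these annotated starts are shown on the minus strand, the strand of both genes, with each CpG in capitals.

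Kdm2b, chr5:122900351-122900450: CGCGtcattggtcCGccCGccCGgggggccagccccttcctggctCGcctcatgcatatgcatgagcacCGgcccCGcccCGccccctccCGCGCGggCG

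Eed, chr7:89980977-89981076: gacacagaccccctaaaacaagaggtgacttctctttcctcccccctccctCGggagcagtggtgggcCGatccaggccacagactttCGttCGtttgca

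The Kdm2b stretch holds 13 CpG in 100 bases and the Eed stretch holds 4. Both genes were early, as given below.

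All 10 Polycomb genes had scores above 0 in all 4 profiles, where 77.5% of all protein-coding genes did, and 8 of them stayed above 3 throughout. Their mean scores over the 4 profiles ran from 0.99 (Bmi1) to 4.76 (Ring1), with a median of 3.96 against 3.25 for all genes. In mean score, 9 of the 10 stood above the all-gene median, and Bmi1 below it.

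**Figure D1:**
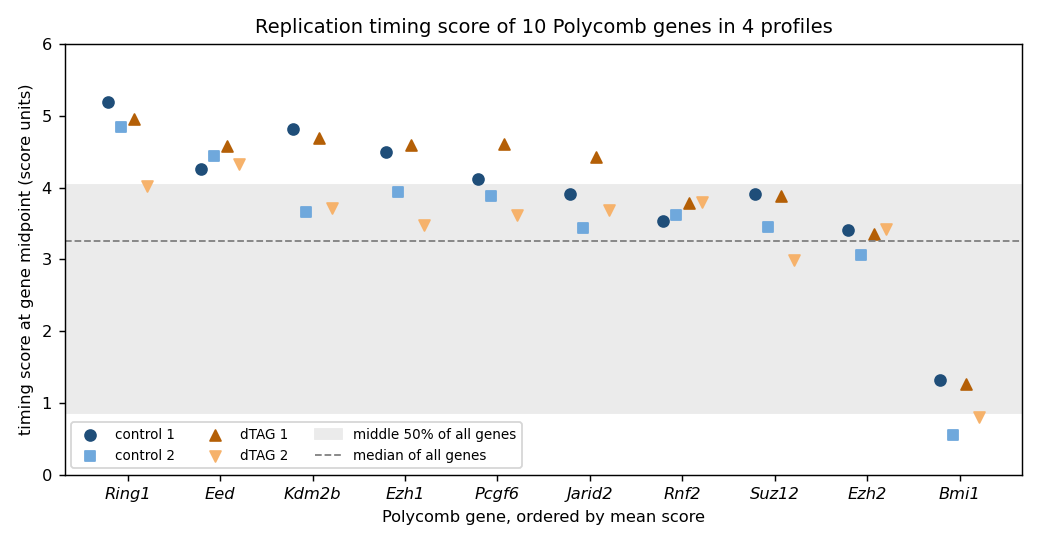
Timing score (score units) at the midpoint of the 10 Polycomb genes, ordered by the mean of the 4 profiles, with 1 point for each profile. The grey band spans the middle 50% of 21519 genes and the dashed line is their median (3.25); Bmi1 sits alone near 1 and the other genes between 2.99 and 5.20.

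Ring1 (chr17:34020792-34024680, minus strand) encodes a ubiquitin ligase subunit of PRC1 and lies within the major histocompatibility complex region. It scored 5.20 in control 1 and 4.85 in control 2, and 4.96 in dTAG 1 and 4.02 in dTAG 2. It was the earliest of the 10 in 3 of the 4 profiles, with a mean score above that of 96.3% of all genes. The dTAG mean was 4.49 ± 0.66 (SD, n = 2) and the control mean 5.02 ± 0.25 (SD, n = 2), and dTAG was lower within both replicate numbers, by -0.24 and -0.82. This was the lowest difference of the 10, -0.53 (SE 0.44, or 0.23 with a term for the replicate number). Across replicate numbers, however, dTAG 1 lay above control 2, so the groups overlapped as deposited. The mean difference was negative at the nearest genes as well. H2-Ke6, 4.31 kb away, had the same scores as Ring1 and so a difference of -0.53. At H2-K1, 24.4 kb away, it was -0.38, with 0.00 in replicate 1 and -0.77 in replicate 2.

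Rnf2 (chr1:151469398-151500991, minus strand) encodes the other ubiquitin ligase, also known as Ring1b. Its scores were 3.53 and 3.61 in controls 1 and 2, and 3.79 and 3.80 in dTAG 1 and 2. Rnf2 was the only member at whose midpoint both dTAG profiles lay above both controls, by a gap of 0.17 score units, a pattern shared by 10.04% of all genes. The difference was 0.22 (SE 0.31, or 0.19 with a term for the replicate number). The call changed with the scaling: with all 4 profiles brought to a common distribution Rnf2 overlapped, while Jarid2 lay above both controls (11.6% of all genes did) and Ring1 below (13.7%).

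Bmi1 (chr2:18677018-18686629, plus strand), also named Pcgf4, encodes a partner of the ubiquitin ligases in canonical PRC1. It scored 1.32 and 0.56 in the controls and 1.27 and 0.81 in the dTAG profiles. Bmi1 was the latest of the 10 in every profile, with a mean score above that of 25.8% of all genes and a gap of 2.33 below the next member, Ezh2. The dTAG minus control differences within replicates were -0.05 and 0.25, and the SD between the controls was 0.54 (n = 2). That SD includes the offset between replicate numbers. On a common distribution it was 0.19 (n = 2), and the differences were -0.05 and 0.26. Its neighbours on either side scored alike: Commd3, 7.49 kb away, had a mean of 1.01, and Gm46725, 7.29 kb away, had a mean of 0.94.

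Pcgf6 (chr19:47033617-47050939, minus strand) encodes a partner of the ubiquitin ligases in a variant PRC1 that also holds Mga and L3mbtl2. Its scores were 4.12 and 3.88 in the controls and 4.61 and 3.62 in the dTAG profiles. The dTAG profiles stood on either side of both controls, higher by 0.49 in replicate 1 and lower by -0.26 in replicate 2.

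Kdm2b (chr5:122870664-122989270, minus strand) encodes the CpG-binding subunit of the variant PRC1 with Pcgf1. It scored 4.81 and 3.65 in the controls and 4.69 and 3.72 in the dTAG profiles. Both replicate 1 profiles were about 1 unit above both replicate 2 profiles, the widest such gap of the 10 (mean 1.06), and the group difference was -0.03 (SE 0.57). With a term for the replicate number the SE was 0.19. The gene spans 119 kb, and at the annotated start farthest upstream the difference was 0.33 instead.

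Ezh2 (chr6:47530274-47595270, minus strand) encodes the main methyltransferase of PRC2 in proliferating cells. Its scores were 3.41 and 3.06 in the controls and 3.36 and 3.42 in the dTAG profiles, close to the all-gene median. The difference was -0.05 in replicate 1 and 0.36 in replicate 2. Its paralogue Ezh1 (chr11:101191115-101226463, minus strand), the methyltransferase more prominent in resting and differentiated cells, scored 4.50 and 3.94 in the controls and 4.59 and 3.48 in the dTAG profiles. The mean of Ezh1 was thus higher than that of Ezh2, 4.13 against 3.31, and Ezh1 was the earlier of the pair in all 4 profiles. For Ezh1 the difference was 0.09 in replicate 1 and -0.46 in replicate 2, so its sign turned between replicate numbers.

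Eed (chr7:89954654-89980976, minus strand) encodes the subunit that binds methylated lysine 27 and stimulates the enzyme. It scored 4.25 and 4.44 in the controls and 4.58 and 4.33 in the dTAG profiles, the earliest of the PRC2 genes by mean score. Suz12 (chr11:79993106-80034123, plus strand), the scaffold of the PRC2 core, scored 3.92 and 3.45 in the controls and 3.88 and 2.99 in the dTAG profiles. Its dTAG 2 value was the lowest of the 4, and the differences were -0.04 and -0.46.

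Jarid2 (chr13:44730774-44921643, plus strand) encodes an accessory subunit that helps to bring PRC2 to chromatin, and at 191 kb it is the longest of the 10 genes. It scored 3.91 and 3.44 in the controls and 4.43 and 3.69 in the dTAG profiles. The dTAG value was higher within both replicate numbers, by 0.52 and 0.25, and the mean difference of 0.38 (SE 0.41) was the highest of the 10. With a term for the replicate number its SE was 0.20. The groups overlapped, since dTAG 2 lay below control 1. Its neighbours differed in other ways: the difference was -0.00 at Dtnbp1, 136 kb away, and -0.15 at Cd83, 1032 kb away.

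Ordered by mean score the genes ran Ring1, Eed, Kdm2b, Ezh1, Pcgf6, Jarid2, Rnf2, Suz12, Ezh2 and Bmi1. Of the 9 pairs of neighbours in that order, the ranges over the 4 profiles overlapped in 8, and only Ezh2 and Bmi1 stood apart. Over all 45 pairs the ranges were apart in 20, of which 9 set Bmi1 below another member. The other 11 set Ring1 and Eed each above Rnf2, Suz12 and Ezh2, and Kdm2b, Ezh1, Pcgf6, Jarid2 and Rnf2 each above Ezh2. The 5 PRC1 genes had a median mean score of 4.06 and the 5 PRC2 genes 3.87, with ranges that overlapped.

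The question the design puts is whether depletion of YY1 moved these scores. By limma at gene midpoints, with group as the only term and Benjamini-Hochberg adjustment over all 21519 genes, no Polycomb gene passed an adjusted p of 0.05, and neither did any other gene (0% called). Unadjusted, 171 genes and none of the 10 had a p under 0.05, and the adjusted p of every member was 0.9999. The standard errors of the 10 differences ran from 0.31 (Rnf2) to 0.57 (Kdm2b) in this model, which has no term for the replicate number. In a model with a replicate block they ran from 0.19 to 0.25, and limma again called 0 genes (0% called, 1652 at an unadjusted p under 0.05), with a smallest adjusted p among the members of 0.658 (Ring1).

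The differences of the 10 genes had a median of 0.11, against -0.02 for all genes, and 6 were positive and 4 negative. Within replicate 1 their median was 0.03 and within replicate 2 it was -0.02. Only 4 of the 10 (Ring1, Rnf2, Suz12 and Jarid2) had the same sign in both replicates, while 55.9% of all genes did. All but Ring1 differed by less than 0.5 score units, as did 89.9% of all genes. Both dTAG profiles were above both controls at 1 of the 10 genes, against 10.04% of all genes, and below at none, against 8.42%. By a margin of at least 0.5 no member stood apart, where 0.325% of all genes were above and 0.776% below. The PRC1 and PRC2 genes had median differences of 0.10 and 0.11.

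**Figure D2:**
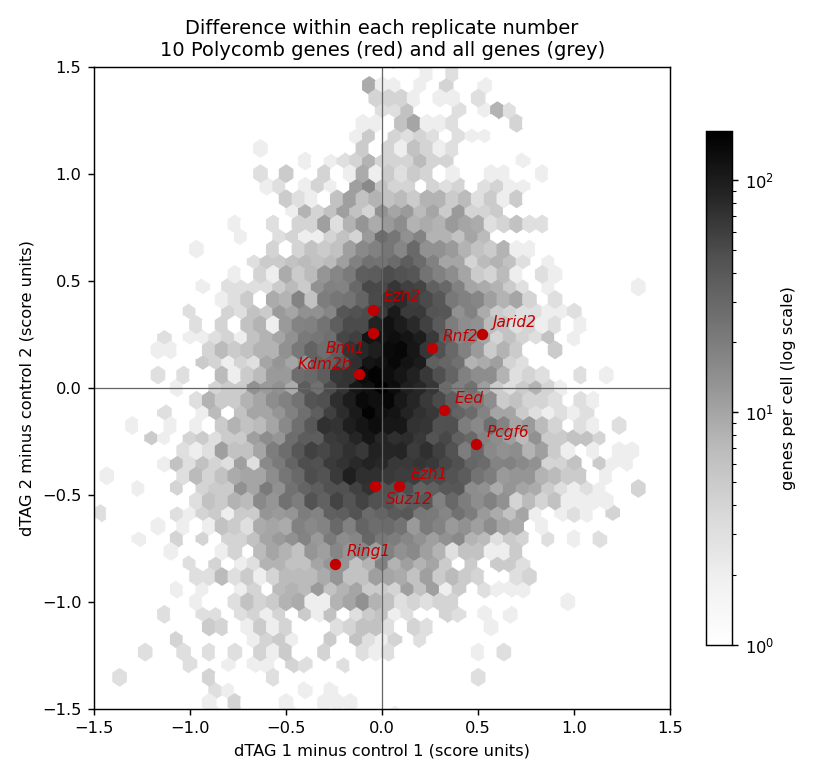
Difference dTAG 1 minus control 1 (x axis) against dTAG 2 minus control 2 (y axis), both in score units, for the 10 Polycomb genes (red) over the density of all genes (grey, log colour scale, genes beyond the axes not drawn). Rnf2 and Jarid2 lie at the upper right of both zero lines, Ring1 and Suz12 at the lower left, and the other 6 have opposite signs in the replicates.

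As deposited, scores of the members differed more between replicate numbers than between groups. Replicate 1 exceeded replicate 2 by a median of 0.61 at the 10 genes and 0.46 over all genes, where the median size of the group difference was 0.17 and 0.18. In the deposited scores this offset was small at Rnf2 and Eed (-0.05 and 0.03), and it was largest at Kdm2b (1.06) and Ezh1 (0.84). The columns of replicate 1 and replicate 2 also differ in distribution, with means of 0.20 and -0.20. Brought to a common distribution, replicate 1 minus replicate 2 was -0.32 at Rnf2 and -0.44 at Eed. At Kdm2b and Ezh1 it was then 0.67 and 0.45. What else in the samples or their processing goes with the replicate number was not tested.

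Around the genes, the profiles 1 Mb to either side (401 positions each) fell into groups by shape. Ring1, Ezh1, Kdm2b and Jarid2 lay in stretches that never fell below 0 in the mean of the 4 profiles. The lowest mean was 2.74 around Ring1, 3.47 around Ezh1 and 3.31 around Kdm2b. Around Jarid2 it came down to 0.03, at 860 kb, and dTAG 2 averaged -0.20 from 785 to 1000 kb. The distance from the midpoint to the nearest position of opposite sign was 3495 kb for Ring1, 2950 kb for Kdm2b, 1790 kb for Jarid2 and 1325 kb for Ezh1. Ring1, Ezh1 and Kdm2b were the flattest of the 10, their mean profiles ranging over 2.30, 1.78 and 1.93 score units. They also had many genes around them, with 91, 80 and 43 protein-coding genes within 1 Mb, while Jarid2 had 4, against a median of 29 over all genes.

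Pcgf6 and Suz12 lay in early stretches that fell below 0 only near the far end of the window, with 0.998% and 5.24% of positions below 0. Rnf2 and Eed lay in early peaks between later flanks. Their profiles ranged over 6.47 and 9.20 score units, and 19.5% and 24.7% of their positions were below 0. Eed stood 65 kb and Rnf2 175 kb from the nearest local maximum, counted as a position that is the highest within 200 kb on either side. Ezh2 was 50 kb from a local maximum of 3.50, but its mean profile was highest at 345 kb (4.13), beyond a dip, and lowest at -875 kb (-4.51), where negative distances lie toward lower mm10 coordinates. From 100 kb before to 100 kb after the Ezh2 midpoint the mean score fell from 3.40 to 1.81, the steepest change of the 10.

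Bmi1 sat on the way from an early stretch to a late one. Its mean profile reached 3.95 at -810 kb and fell to -1.20 at 260 kb, and a position of opposite sign was 125 kb from the midpoint, the nearest of the 10. At Bmi1 34.9% of the window was below 0, the largest share among the members, against a median of 17.0% over all genes. From 100 kb before to 100 kb after the midpoint the mean score fell from 1.26 to 0.23.

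**Figure D3:**
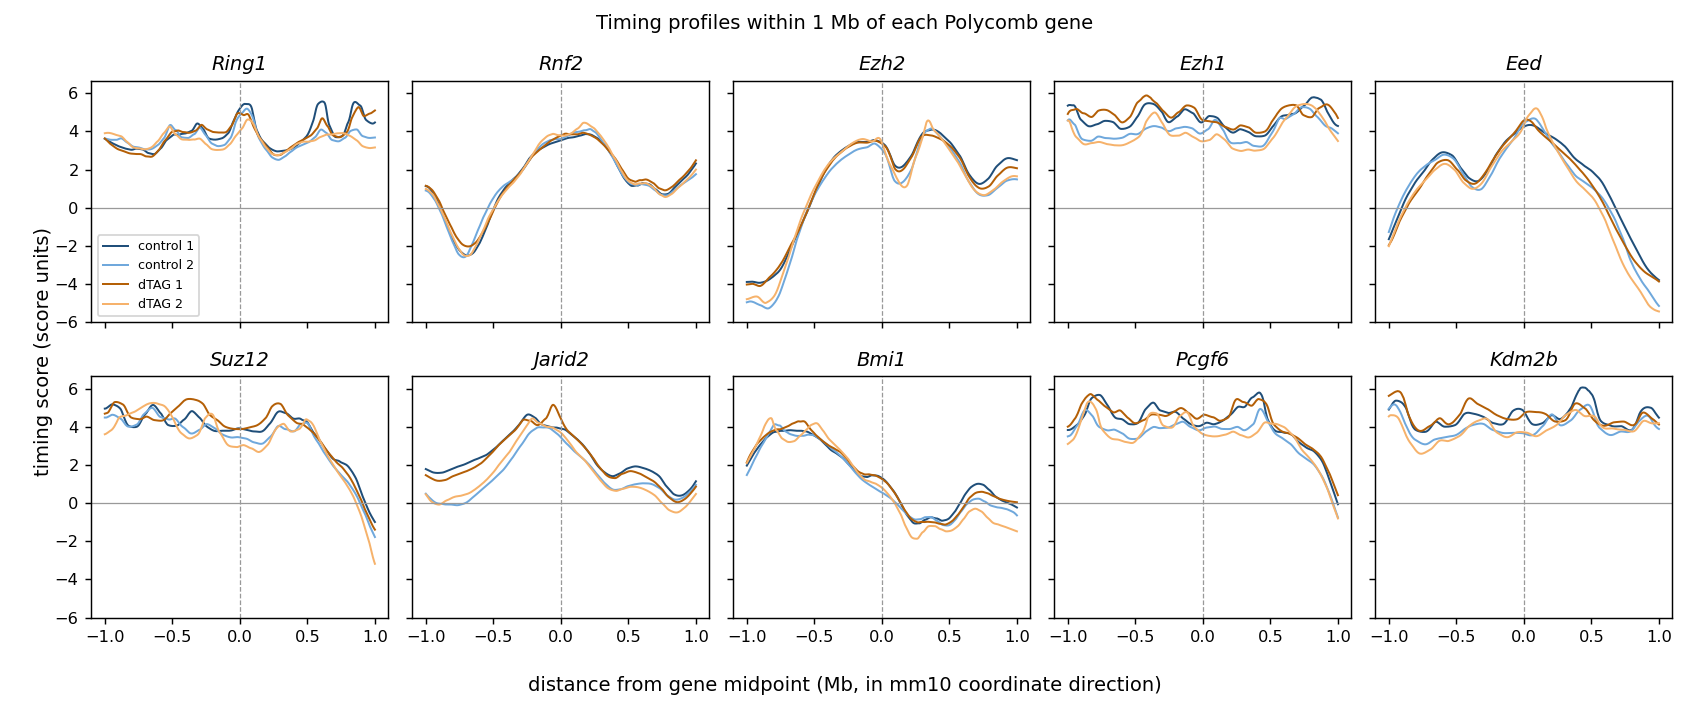
Timing score (score units) along 1 Mb to either side of the midpoint of each Polycomb gene (dashed line), with 1 curve for each of the 4 profiles; distances follow mm10 coordinates. Ring1, Ezh1, Jarid2 and Kdm2b stay above 0 in the mean profile, Rnf2 and Eed lie in early peaks, Ezh2 beside a dip, and the mean profile at Bmi1 crosses 0 at 125 kb.

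The means over the 2 Mb window were compared in the same way. By limma with group as the only term no gene passed (0% called), with 74 genes and none of the 10 at an unadjusted p under 0.05, and the adjusted p of each member was 1. Windows of neighbouring genes share positions, so these tests are not independent of each other. Both dTAG means lay above both control means at Rnf2 alone, a pattern of 4.49% of all genes, and below both at Eed alone, a pattern of 3.38%.

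The Eed window had means of 1.60 and 1.23 in the controls and 1.22 and 0.85 in the dTAG profiles. It was lower in dTAG by -0.38 within each replicate number, and 2.63% of all genes had a lower difference. For means within 1 Mb, 1271 genes (5.91%) passed limma's test once the model held a replicate block. Eed was the only member among them, with an adjusted p of 0.0268. That test had 198 degrees of freedom, most of them from variance shared over genes with overlapping windows. The p-value therefore rests little on the spread at Eed itself. The gap between the higher dTAG and the lower control mean was 0.01 score units. The Rnf2 window had means of 1.38 and 1.45 in the controls and 1.52 and 1.46 in the dTAG profiles, a difference of 0.08.

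Position by position, both dTAG scores were below both controls at 40.4% of the 401 positions around Eed, against 8.66% of all positions with a score. That share was higher than at 97.0% of all genes. The gene itself was not in these stretches. The first ran from -1000 to -415 kb of the midpoint (590 kb, with the midpoints of Fzd4, Prss23 and Tmem135), where dTAG was lower by -0.46 in replicate 1 and -0.65 in replicate 2. The second ran from 540 to 755 kb (220 kb, with no protein-coding midpoint) on the falling side of the peak, with mean scores of 0.38 and -0.38 in the controls and -0.62 and -1.49 in the dTAG profiles. The difference there was -1.06, and it reached -1.19 at 680 kb.

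Around Rnf2 and around Bmi1 both dTAG scores were above both controls at 28.4% of positions, against 10.9% of all positions. Among the windows of all genes, each of these shares stood at percentile 90.0. The share counts the order of the scores and not the size of the difference. Around Rnf2 the root mean square difference was 0.22 in replicate 1 and 0.25 in replicate 2, at percentiles 17.3 and 6.77. Around Bmi1 it was 0.24 and 0.55, at percentiles 23.5 and 81.5. Between the controls it was 0.29 around Rnf2, against a median of 0.63 over the members. At Rnf2, as deposited, the positions above included the gene, in a stretch from -60 to 65 kb of the midpoint, with a difference of 0.19 in its mean. Further stretches above at Rnf2 ran from -895 to -745 kb (0.32) and from 355 to 595 kb (0.15), while from -490 to -345 kb dTAG was below control (-0.23). At Bmi1 the stretches above lay on the early side, from -1000 to -835 kb (0.44), from -570 to -450 kb (0.36) and from -430 to -160 kb (0.23, with the midpoint of Dnajc1). On the late side of Bmi1, from 300 to 435 kb, dTAG was below control by a difference of -0.33. Over the 4010 positions around the 10 genes together, 10.9% were above and 8.35% below, close to the shares of all positions, 10.9% and 8.66%.

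The other stretches of at least 100 kb were near 4 members. Near Suz12 dTAG was above control by 0.56 from -860 to -735 kb, which includes the midpoint of Wsb1, and by 0.57 from -270 to -155 kb. Beside Ring1, from 15 to 125 kb and including Brd2 and Col11a2, dTAG was below control by a mean difference of -0.49. Near Jarid2 it was lower by -0.46 from 785 to 1000 kb, at Atxn1, and near Pcgf6 higher by 0.34 from 495 to 620 kb, at Slk. These stretches were found by their values and have no test of their own, and smoothing makes the positions within them share reads.

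**Figure D4:**
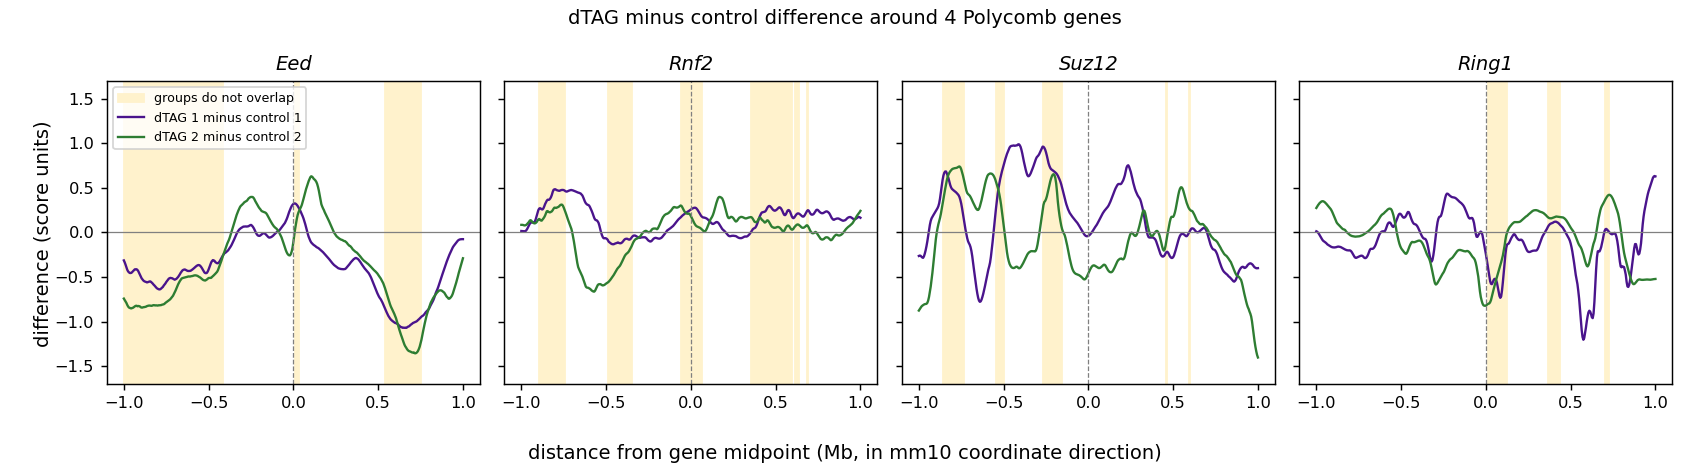
Difference between dTAG and control (score units) within replicate 1 (purple) and replicate 2 (green) along 1 Mb to either side of Eed, Rnf2, Suz12 and Ring1, 4 genes chosen after their values were seen; shading marks positions where both dTAG scores lie on the same side of both controls. Around Eed the shaded stretches, 40.4% of positions with dTAG below, flank the gene, and around Rnf2 they include it.

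The size of the differences along the window was set beside that around all genes. The root mean square difference between dTAG and control had a median of 0.34 in replicate 1 and 0.37 in replicate 2 around the 10 genes, and of 0.31 and 0.41 around all genes. Between the controls it was 0.63 around the 10 genes and 0.66 around all genes. Eed had the highest value of the members in both replicates, 0.51 and 0.62.

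Further subunits of the same complexes were read from fixed lists. Of 22 other PRC1 genes 19 scored above 0 in all profiles, and their medians were 3.71 for the score and -0.11 for the difference. Phc3, a Polyhomeotic homologue, was the earliest (4.51) and had the highest difference (0.41). Of the 22 it alone had both dTAG scores above both controls (10.04% of all genes did), by a gap of 0.06. Scml2, on chromosome X, was the latest (-2.09) and had the lowest difference (-0.53). Both dTAG scores were below both controls at Scmh1 and Phc1, 2 genes named after their values were seen, by gaps of 0.16 and 0.02. This was so at 8.42% of all genes. Of 9 other PRC2 genes 8 scored above 0 throughout, with medians of 3.62 and 0.01. Ezhip, an inhibitor of PRC2, was the exception at -3.78. Phf1 had the highest score (4.10) and the lowest difference (-0.39), and Phf19 had the highest difference (0.12). Both encode accessory subunits that read histone methylation. None of the 31 genes passed limma's test at the midpoint with group as the only term, a model that called 0% of all genes.

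Enzymes that remove the marks of the complexes had 5 of 7 genes above 0 in all profiles, with medians of 3.88 and 0.07. Kdm6b, an H3K27 demethylase, was the earliest (4.67) and had the highest difference (0.22). Asxl3, a partner of the H2A deubiquitinase Bap1, was the latest at -2.23. It scored -1.25 and -1.47 in the controls and -3.02 and -3.17 in the dTAG profiles, a difference of -1.74 that was lower than all but 0.0929% of genes. Asxl3 was the only gene of these lists in which dTAG lay below both controls by at least 0.5, as it did at 0.776% of all genes. Within replicate numbers the Asxl3 difference was -1.77 and -1.71. Asxl3 did not pass limma's test either (unadjusted p 0.0027, adjusted p 0.9999), in the same model that called 0% of all genes.

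Trithorax group methyltransferase complexes, which place activating methylation on histone H3, were early in 12 of 12 genes, with medians of 4.0 and -0.06. Kmt2a had the highest score (4.98) and Cxxc1 the lowest (2.35). Dpy30 had the highest difference (0.21) and Men1 the lowest (-0.58). At Setd1b alone, a gene also named after its values were seen, were both dTAG scores below both controls, against 8.42% of all genes. CTCF and cohesin genes, whose products fold chromatin into loops, were early in 11 of 11, with medians of 3.64 and 0.13. Pds5a had the highest score (4.40) and Nipbl the lowest (3.15), and the differences ran from -0.08 (Rad21) to 0.43 (Smc3). Both dTAG scores were above both controls at 3 of these 11 genes, against 10.04% of all genes. They were Pds5b, Nipbl and Stag2, named for this after their values were seen, with small gaps of 0.02, 0.06 and 0.08 score units. No gene of either list passed limma's test with group as the only term, where 0% of all genes did.

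**Figure D5:**
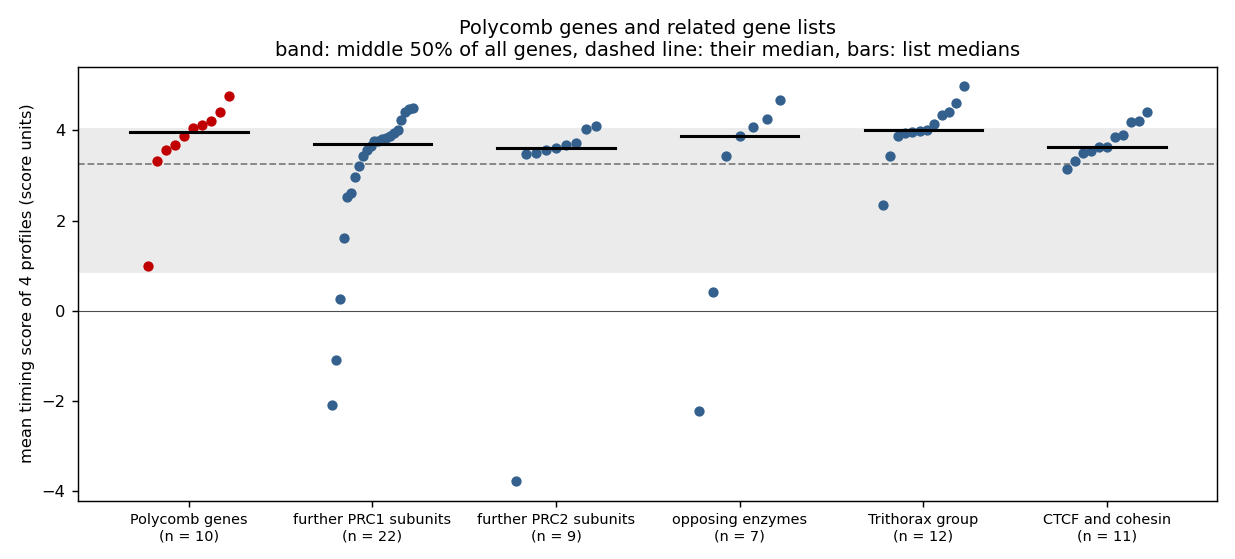
Mean timing score over the 4 profiles (score units) at the midpoint of the 10 Polycomb genes (red) and of 5 related lists (blue), 1 point per gene, with black bars for list medians. The grey band spans the middle 50% of 21519 genes and the dashed line is their median; every list median lies above it, between 3.62 and 4.0.

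The genes whose 4 scores lay closest to the median scores of the 10 members (4.02 and 3.63 in the controls, 4.50 and 3.66 in the dTAG profiles), on chromosomes without a member, were Tmeff1, Atp13a1 and Syt11. Their root mean square distances over the 4 profiles were 0.044, 0.053 and 0.056 score units. This likeness is in timing score alone.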

How the data were processed

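Timing scores of 4 profiles from 8 samples (an early and a late S phase sample each) were used as deposited. The authors smoothed the score with Loess and quantile normalized it, per the file name; the submitters' processing notes name Bowtie2, SAMtools, bedtools and mm10, without versions. The score has no stated formula. Of 526745 positions, 514245 had a score in all 4 profiles and 4 in some. Columns of the same replicate number share 1 distribution, and the distribution of replicate 2 is that of replicate 1 with the sign turned. This holds for the sorted scores and not position by position. No depth is known, and whether depth or the number of replicates limits the precision was not tested.

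Gene positions came from RefSeq (GRCm38.p6): 21627 protein-coding genes, 21519 with a score at the 5 kb position nearest the midpoint. Groups were compared over these genes by limma (version 3.58.1, R 4.3.3), with lmFit and eBayes and no term but group; tests were 2-sided with Benjamini-Hochberg adjustment and a threshold of 0.05. Mean estimates of the model were checked on simulated data with shifts larger than the differences at the members. Its calls at differences of the members' size were not checked. Non-overlap means both dTAG scores above, or below, both controls. Other steps used Python 3.11.15, numpy 2.4.6, pandas 2.3.3 and matplotlib 3.10.9.

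The members and lists were chosen with earlier results of these data known. Named were the 10 members, the extremes of each list in score and difference, the nearest genes beside Ring1, Jarid2 and Bmi1, and the 3 genes most like the members. Alternatives were scores brought to a common distribution, centring by chromosome, 50 kb and gene-body means, leaving out each profile, a replicate block, trended and robust variance, other margins and other summit widths. The score at the transcription start was added after seeing the data.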

Additional observations from a re-analysis of the deposited data

How the results depend on the processing

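With 2 profiles per group and smoothed scores of unknown depth, limma without a block called none of the member differences. How small a difference it could have called was not measured. The labels give the groups the same replicate numbers but name no shared culture or day behind a number, so the replicate block was an alternative; deviations of control 1 and dTAG 1 from their group means correlated at r = 0.636 over 21519 genes. At midpoints limma with the replicate block called 0 genes, and 558 with trended and robust variance as well, none a member (smallest adjusted p among members 0.658 and 0.673). Whether genes of the other lists were among the 558 is not given here. For means within 1 Mb it called 1271 genes and, with trended and robust variance, 1399, in both cases with 1 member, Eed, whose difference of -0.38 had an adjusted p of 0.0268 and 0.0115. The window fits with a block had 198 and 21519 degrees of freedom, most of them from variance shared over genes. The cause of the changes in calls was not tested.

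Brought to a common distribution, the median difference of the members was 0.067, 2 of 10 members stood apart (Ring1 below, Jarid2 above, with Rnf2 overlapping) against 25.3% of all genes, and the difference of the mean within 1 Mb of Ezh1 was -0.016. At the transcription start 2 members stood apart (Rnf2 and Eed, both above) against 18.7% of all genes, Kdm2b differed by 0.33 and Ezh2 by -0.0063; over the gene body Kdm2b differed by 0.0066. Margins of 0.25 and 0.5 left 891 and 237 genes apart and 0 members. The median distance to a summit was 77.5 kb with 100 kb and 320 kb with 400 kb on either side, against 240 kb.

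Leaving out 1 profile at a time, midpoint calls over all genes ran from 0 to 5 (4 without dTAG 1, 5 without dTAG 2), genes apart from 10888 to 15045 and members apart from 5 to 6, since fewer profiles overlap less. The members' median difference ran from -0.25 to 0.28 while that of all genes ran from -0.28 to 0.20. Midpoint differences that changed sign ran from -0.28 to 0.48 (Bmi1), -0.012 to 0.23 (Eed), -0.74 to 0.37 (Ezh1), -0.018 to 0.33 (Ezh2), -0.61 to 0.55 (Kdm2b), -0.38 to 0.61 (Pcgf6) and -0.69 to 0.20 (Suz12). Means within 1 Mb that did ran from -0.28 to 0.14 (Bmi1), -0.49 to 0.51 (Ezh1), -0.24 to 0.34 (Ezh2), -0.53 to 0.42 (Jarid2), -0.39 to 0.33 (Kdm2b), -0.33 to 0.47 (Pcgf6), -0.24 to 0.042 (Ring1) and -0.25 to 0.35 (Suz12). Ring1, Rnf2 and Jarid2 at the midpoint, and Rnf2 and Eed within 1 Mb, kept their sign. Under the settings that keep all profiles, 94 of the 100 member differences kept direction and side of the threshold. The replicate-block settings among them leave every difference unchanged in this balanced design, so direction could not change there. The 10 members were above 0 in all profiles as deposited, on a common distribution, at starts, over windows and gene bodies, and without each profile; this was not counted after centring by chromosome.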
